A study of Mus musculus with 2 samples.

Results

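The strongest genomic sites of Nacc1 in N2A cells were described, defined as all peaks with a score of 500 or more on chromosomes 1 to 19 and X. This rule took 265 peaks out of 5942 in the deposited list. The score comes from the peak caller MACS, and is the log10 of the caller's p-value for the peak multiplied by −10. A score of 500 therefore corresponds to a caller value of 1e-50, and the lowest score in the list, 50, to 1e-05. The sites were chosen by this score, so scores are given below as a description only. The remaining 5676 peaks on the same chromosomes had scores below 500 and served for comparison. The list also holds 1 peak on Y, with a score of 62.6, which belongs to neither class.

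Nacc1, the nucleus accumbens-associated protein, is a nuclear protein with a BTB/POZ domain, through which it pairs with itself and with other proteins, and a BEN domain of the kind that contacts DNA. It was first described in the nucleus accumbens of the brain, works with co-repressors that include histone deacetylases, and is also known from embryonic stem cells and from carcinomas. Proteins of this kind sit at discrete stretches of chromatin, and chromatin immunoprecipitation followed by sequencing (ChIP-seq) reads each such stretch as a peak of fragments above background.

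N2A is a mouse neuroblastoma cell line, studied in a series whose title concerns the control of alternative splicing by transcription factors. The ChIP group had 1 library, made from about 20000000 cells crosslinked with 1% formaldehyde by pulling down Nacc1 with 4 µg of antibody. The input group, from the same line with no antibody, also had 1 library, for which no values were analysed here. No genetic change, treatment or time point is named for either group, and neither had a replicate, so no value below carries a replicate error and no difference between classes of peaks was tested. Intervals are exact 95% Clopper-Pearson intervals on numbers of peaks. They cover counting error only, and they treat peaks as independent, which neighbouring peaks of 1 library are not. Positions are 1-based in build mm9. Genes, promoters and DNA sequence at these positions were not analysed here, because the reference tables at hand are of another build.

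The strong sites formed the upper tail of a continuous range of scores, with no gap at the threshold. Their median score was 757, with quartiles of 587 and 1021 and a highest value of 3212. Scores from 500 to 1000 were held by 194 of them and scores of 1000 or more by 71. On either side of the threshold the list was about equally filled, with 41 peaks from 450 to 500 and 48 from 500 to 550. Just inside lay peaks on chromosome 9 at 120203033 to 120203919 (score 502), chromosome 16 at 90901028 to 90901884 (504), chromosome 1 at 188182824 to 188183464 (504), chromosome 14 at 10109163 to 10109965 (505) and chromosome 2 at 5014406 to 5015207 (505). Just outside lay peaks on chromosome 1 at 107803068 to 107803782 (score 499), chromosome 6 at 145321693 to 145322736 (495), chromosome 13 at 28874262 to 28874860 (495), chromosome 4 at 140482232 to 140482985 (495) and chromosome 13 at 113616121 to 113616550 (494). These 10 peaks lay between 494 and 505, so scores ran on across the threshold.

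Strong sites were broad for this list. The median strong site spanned 843 bp (quartiles 683 and 1102 bp), and the median peak below the threshold 416 bp (quartiles 341 and 525 bp). Only 6 of the 265 (2.26%) were at most 500 bp wide, while 4021 of the 5676 weaker peaks (70.8%) were. Width and score come from the same peak calls, so width is given as a description and not as independent evidence. Within the strong class it still rose with score, from a median of 812 bp at 500 to 1000 to 1103 bp at 1000 or more. The peaks of 200 to 500 had a median of 643 bp, so medians rose from band to band up to the strong sites. The widest peaks of the list did not follow this, since the longest had 9350 bp at scores of 50 to 60 and 6065 bp at 100 to 200, against 2794 bp among strong sites. In all, strong sites made up 4.46% of peaks and 8.65% of the sequence covered by peaks.

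**Figure D1:**
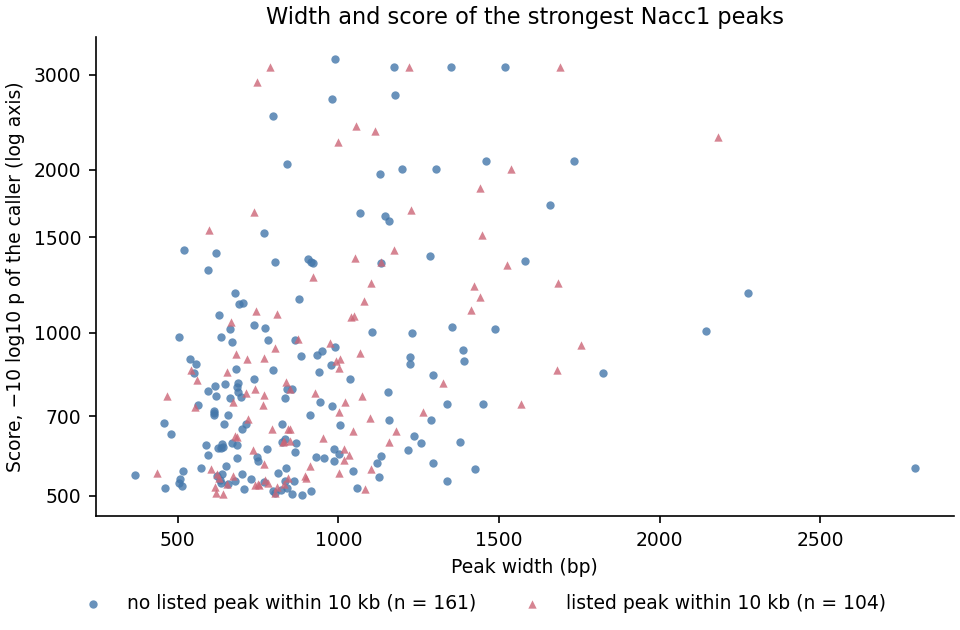
Width in bp (horizontal) and score (vertical, log axis) of each of the 265 strong Nacc1 peaks, with the 161 isolated peaks as circles and the 104 peaks with a listed neighbour within 10 kb as triangles. The kinds overlap over nearly the whole range of widths and scores, and 4 peaks are wider than 2000 bp.

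Narrow strong sites were few and of moderate score. The narrowest was a 366 bp peak on chromosome 12, at 110791008 to 110791373, with a score of 545. It was followed by peaks on chromosome 8 at 122866988 to 122867423 (436 bp, score 549.7), chromosome 14 at 63681057 to 63681514 (458 bp, 681), chromosome 18 at 83071910 to 83072370 (461 bp, 517) and chromosome 12 at 15711306 to 15711772 (467 bp, 765). At the other end, the widest strong site covered 2794 bp on chromosome 7, at 140975304 to 140978097, at a score of only 562. The next in width lay on chromosome 2 at 30551529 to 30553804 (2276 bp, score 1183), chromosome 8 at 129060796 to 129062976 (2181 bp, 2302), chromosome 11 at 117342199 to 117344341 (2143 bp, 1006) and chromosome 2 at 174172610 to 174174434 (1825 bp, 841). Of these 5, only the chromosome 8 site had other listed peaks within 10 kb, at gaps of 0.027 kb on its left and 0.577 kb on its right.

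All 20 chromosomes carried at least 2 strong sites. Their share among the listed peaks of a chromosome ran from 1.73% on chromosome 19 (3 of 173, interval 0.36% to 4.98%) to 6.47% on chromosome 10 (27 of 417, 4.31% to 9.28%), against 4.46% over all. Chromosomes 11 (23 of 391, 5.88%) and 15 (16 of 283, 5.65%) followed chromosome 10, and chromosomes 6 (7 of 333, 2.10%) and 17 (5 of 180, 2.78%) stood near the lower end. The overall share lay inside the interval of every chromosome except 6, whose interval of 0.85% to 4.28% ended just below it. Chromosome 8 has the most listed peaks, 578, but 26 of them were strong (4.50%), the same share as over the list. X had few listed peaks, 62, and 2 strong ones (3.23%, 0.39% to 11.2%). Numbers of strong sites hence followed the numbers of listed peaks only in part, as chromosomes 6 and 15 show. Per Mb of span they ran from 0.012 on X to 0.22 on chromosome 10.

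The highest strong site of a chromosome varied widely in score. It reached 1000 or more on 17 of 20 chromosomes and was lowest on X, where a 686 bp peak at 100811359 to 100812044 had a score of 620. On chromosome 14 it was the 458 bp peak named above, with a score of 681, and on chromosome 12 a 994 bp peak at 55811167 to 55812160, with a score of 888. Intermediate values were found on chromosome 16 at 32598204 to 32599081 (score 1156), chromosome 17 at 4626110 to 4626703 (1307), chromosome 13 at 93258794 to 93260374 (1356), chromosome 19 at 47251401 to 47251920 (1422), chromosome 4 at 41607609 to 41608345 (1670), chromosome 2 at 170155855 to 170157052 (2007), chromosome 11 at 117037680 to 117038520 (2053) and chromosome 1 at 108365640 to 108367097 (2078). Higher still were the top sites of chromosome 18 at 42864170 to 42864966 (2513), chromosome 7 at 63369244 to 63370223 (2700), chromosome 8 at 48448409 to 48449584 (2748) and chromosome 3 at 151977618 to 151978365 (2902). The top sites of chromosomes 6, 9, 10 and 15 share the listed value of 3100 and that of chromosome 5 holds the maximum. The repeated value of 3100 could be a ceiling of the scores, which no source at hand settles, so these sites are not ranked by strength. High scores did not need a wide peak: the chromosome 3 site was 748 bp wide, the chromosome 18 site 797 bp and the chromosome 19 site 520 bp. No listed peak lay within 10 kb of 15 of these 20 top sites, beside 71.5% of all listed peaks.

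Strong and weaker peaks were divided alike at the midpoint of chromosomes. When spans were cut into 5 parts, strong sites had a larger share than weaker peaks in the last part and a smaller one in the part before it. Beyond the midpoint of the span of listed peaks lay 165 of 265 strong sites (62.3%, interval 56.1% to 68.1%), against 3478 of 5676 weaker peaks (61.3%) and 61.3% of all listed peaks. When each span was cut into 5 equal parts, counted from the end with the centromere, the last part held 115 strong sites (43.4%, interval 37.3% to 49.6%) and 1981 weaker peaks (34.9%, 33.7% to 36.2%). Peaks of 200 to 500 lay between them with 256 of 668 (38.3%, 34.6% to 42.1%), an interval that overlapped that of the strong sites. The other 4 parts held between 11.7% and 17.0% of the strong sites. In the part before the last lay 36 strong sites (13.6%) and 1052 weaker peaks (18.5%). Shares of the 5 parts were not recomputed with a chromosome left out. On chromosome 11, 19 of 23 strong sites lay beyond the midpoint, beside 70.7% of its weaker peaks, and on chromosome 4, 13 of 16, beside 77.9%. Chromosome 9 was the opposite case with 2 of 10, beside 46.3%, and chromosome 14 with 1 of 5, beside 43.4%. The spans start at the first listed peak, so stretches before it are left out.

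**Figure D2:**
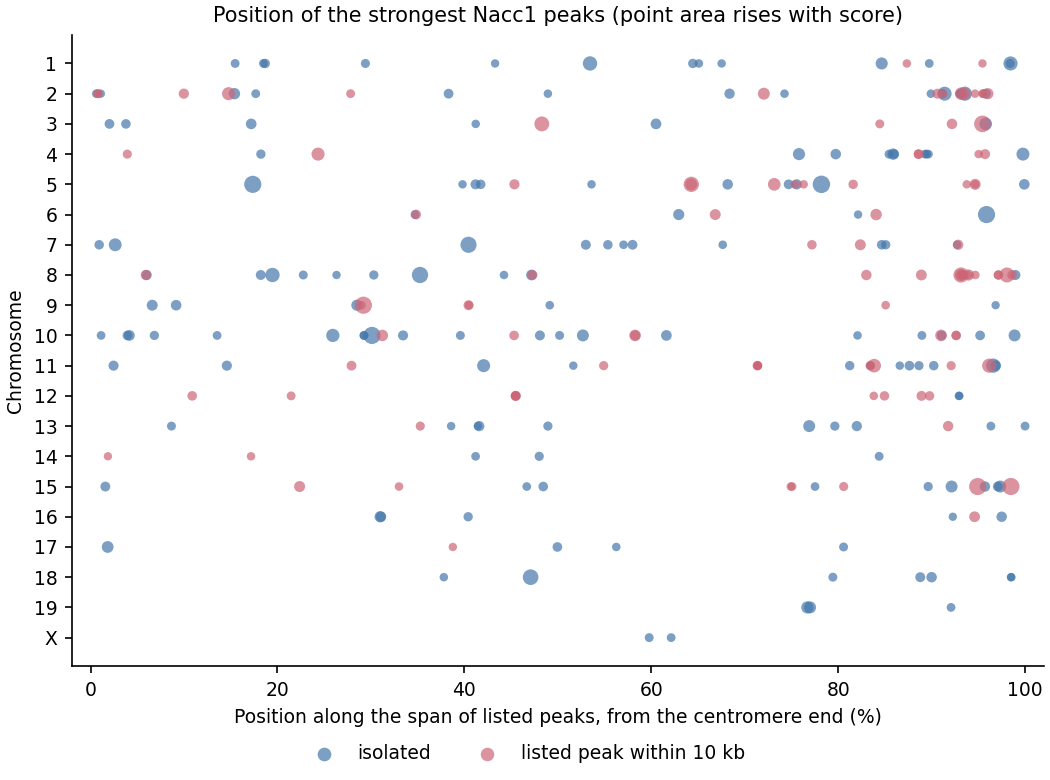
Position of each strong Nacc1 peak along its chromosome, as a percentage of the span of listed peaks (horizontal), by chromosome (vertical), with point area rising with score. Isolated peaks are blue and peaks with a listed neighbour within 10 kb are red, and the last part of many chromosomes is more densely filled, with 43.4% of strong peaks beyond 80%.

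Most strong sites were far from the next one, but a few formed close pairs. The median gap between one strong site and the next on the same chromosome was 3498 kb, with quartiles of 693 and 10956 kb and a longest gap of 77549 kb. Of these 245 gaps, 69 (28.2%) were at most 1 Mb, 28 (11.4%) at most 100 kb and 9 (3.67%) at most 10 kb. Between consecutive peaks below 500 the median gap was 108 kb, with 48.6% of gaps at most 100 kb and 15.3% at most 10 kb. Strong sites are a small part of the list, so wider gaps among them follow from the rule. Strong sites occupied 219 of the 1574 windows of 1 Mb that held any listed peak, and 184 of these windows held a single strong site. The remaining 81 strong sites (30.6%) shared their window with another.

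The 9 close pairs show how differently such neighbours can be arranged. On chromosome 8, a 1114 bp peak at 122749426 to 122750539 (score 2359) was separated by only 0.006 kb from a 1053 bp peak at 122750546 to 122751598 (1377), and the next listed peak lay 37.9 kb away. On chromosome 5, peaks at 144467072 to 144467816 (1095) and 144468163 to 144468777 (518) were 0.346 kb apart. Whether pairs this close are separate sites or 1 region divided by the caller cannot be told from the list. Chromosome 12 held 2 pairs in the same 1 Mb window: peaks at 55811167 to 55812160 (888) and 55815089 to 55815938 (664) with a gap of 2.93 kb, and peaks at 55835030 to 55835859 (524) and 55838456 to 55839780 (806) with a gap of 2.60 kb. On chromosome 11, peaks at 101502805 to 101503805 (715) and 101506557 to 101507385 (628) lay 2.75 kb apart. The other 4 pairs, on chromosomes 4, 5, 10 and 11, had gaps from 4.67 to 7.98 kb. A strong neighbour within 10 kb was thus listed for 18 of 265 strong sites (6.79%, interval 4.08% to 10.5%), against 129 of 5676 weaker peaks (2.27%, 1.90% to 2.69%) and 19 of 668 peaks of 200 to 500 (2.84%, 1.72% to 4.41%). The 18 sites are the 9 pairs counted from both ends, so their interval is too narrow. No listed group of neighbours within 10 kb of each other held more than 2 strong sites.

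The 1 Mb windows with the most strong sites held 4 each. In the window of chromosome 12 from 55000001 to 56000000 these were the 2 pairs just named, out of 10 listed peaks. Another such window, on chromosome 11 from 87000001 to 88000000, held strong sites at 87240075 to 87240843 (score 766), 87256680 to 87257299 (506), 87261967 to 87262718 (523) and 87275630 to 87276315 (642), in a row with gaps of 15.8, 4.67 and 12.9 kb, among 13 listed peaks. The others were on chromosome 8 from 122000001 to 123000000 (41 listed peaks) and on chromosome 11 from 101000001 to 102000000 (19). These windows fall outside the rule for named regions and were chosen after their counts were seen.

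Most strong sites stood alone, but less often than listed peaks in general. No listed peak of any score lay within 10 kb, edge to edge, of 161 of the 265 (60.8%), and none within 100 kb of 54 (20.4%). The share with none within 10 kb was 71.5% over all listed peaks and 72.0% among peaks below 500. A listed peak lay within 100 kb of 79.6% of strong sites (interval 74.3% to 84.3%), against 69.1% of all listed peaks. Peaks of 200 to 500 were closer to the strong sites, with 75.7% (72.3% to 79.0%), and peaks of 100 to 200 had 74.4%. The most isolated strong site was on X at 104652053 to 104653186 (score 591), 3840 kb from the nearest listed peak. Next came chromosome 13 at 13619626 to 13621004 (score 627, nearest peak 1978 kb away), chromosome 4 at 119157545 to 119158163 (1403, 1286 kb), chromosome 13 at 120216600 to 120217376 (608, 955 kb on its single flanked side) and chromosome 15 at 52166284 to 52166903 (764, 923 kb). A score as high as 1403 was thus listed for a site with no other listed peak in more than 1 Mb on both sides.

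A neighbour within 10 kb was listed for 104 strong sites, or 39.2% (interval 33.3% to 45.4%), against 28.5% of all listed peaks. Among peaks below 500 it was 1590 of 5676, or 28.0% (26.9% to 29.2%), and the intervals of the classes did not overlap. Peaks of intermediate score lay between, however, as the share rose from band to band. The share was 20.8% at scores of 50 to 60 (interval 18.8% to 22.9%), 27.1% at 60 to 100, 34.4% at 100 to 200 (31.8% to 37.0%), 35.0% at 200 to 500 (31.4% to 38.8%), 38.1% at 500 to 1000 (31.3% to 45.4%) and 42.3% at 1000 or more (30.6% to 54.6%). From a score of 100 upwards all intervals overlapped, which does not decide whether these shares differ, and this was not tested. The lowest shares were those of the bands under 100, which hold 1556 and 2102 of the 5676 weaker peaks.

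**Figure D3:**
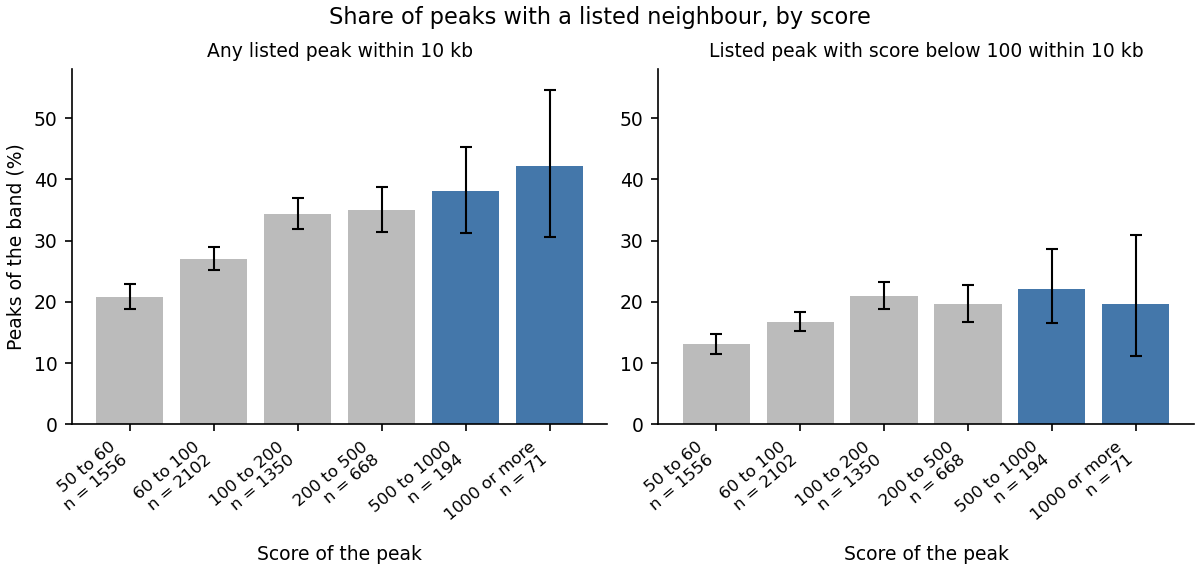
Percentage of peaks in each band of score with any listed peak within 10 kb (left) and with a listed peak of score below 100 within 10 kb (right), where bars give the share, error bars the exact 95% interval, and blue bars the strong peaks. On the left the share runs from 20.8% to 42.3%, and on the right the 4 bands from 100 upwards lie between 19.6% and 22.2%.

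By chromosome, the numbers of strong sites were small. On chromosome 12, 10 of 12 strong sites had a listed neighbour within 10 kb, beside 27.6% of its weaker peaks, and on chromosome 8, 16 of 26, beside 37.3%. None of the 7 strong sites of chromosome 18 had one (weaker peaks 19.4%), nor the 3 of chromosome 19 (30.0%) or the 2 of X (13.3%). It was 2 of 15 on chromosome 1 (weaker peaks 20.5%) and 2 of 12 on chromosome 13 (31.5%). The share among strong sites was higher than among weaker peaks on 12 of 20 chromosomes and lower on 8. When 1 chromosome at a time was left out, the share of strong sites with a neighbour stayed between 36.8% and 40.8%, and that of weaker peaks between 27.0% and 28.5%.

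Isolated and accompanied strong sites resembled each other in score and width. The 161 isolated sites had a median score of 740 and a median width of 834 bp, and the 104 with a neighbour had medians of 765 and 862 bp. Accompanied sites were in 1 Mb windows with a median of 10 listed peaks and isolated ones in windows with a median of 6, counts that include the neighbour by which the former are defined. In the last of the 5 parts of the span lay 56 of the 104 accompanied sites (53.8%, interval 43.8% to 63.7%) and 59 of the 161 isolated ones (36.6%, 29.2% to 44.6%). The intervals overlapped slightly, and whether the shares differ was not tested.

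The 104 accompanied strong sites belonged to 93 groups, in which each peak follows the last within 10 kb. A single strong site was present in 82 of these groups and 2 in 11. In 31 of the 82 every other peak of the group had a score below 100, in 32 the next highest score was 100 to 200, and in 19 it was higher. The second strongest peak of these 82 groups had a median score of 121. It lies below 500 by definition, and the median score of all peaks below 500 was 78.4. Much weaker companions are therefore a description and not a trait of strong sites. Pairs made up 58 of the 93 groups (62.4%), groups of 3 another 17 (18.3%), and 18 (19.4%) held 4 or more. Groups without a strong site numbered 629, with 503 pairs among them and 33 groups (5.25%) of 4 or more. A larger group has more chances to include a strong site, so this difference in size was partly given by counting. Where 1 strong site belonged to a group of 3 or more, it lay at the edge of the group in 12 cases and inside it in 17.

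Weaker peaks beside strong sites, called satellites here, were 129 distinct peaks with scores below 500 within 10 kb of a strong site, or 2.27% of all peaks below 500. Satellites were found around 93 of the 265 strong sites (35.1%). A peak below 500 lay within 10 kb of 27.3% of all listed peaks, 32.9% of peaks of 100 to 200 and 33.4% of peaks of 200 to 500. A single satellite was listed for 65 strong sites, 2 for 16, 3 for 10, 4 for 1 and 5 for 1. The mean was 0.513 per strong site, against 0.366 around peaks below 500, 0.459 around peaks of 100 to 200 and 0.473 around peaks of 200 to 500. Satellites ranged in score from 50.6 to 463, with a median of 95.2 and quartiles of 64.5 and 159.7, and in width from 223 to 1069 bp, with a median of 484 bp. They had higher scores than the 5547 other peaks below 500, whose median was 78.1, but were close to the 1461 of these that had a listed neighbour of their own, with a median of 90.5. Scores below 100 were held by 72 of the 129 satellites (55.8%, interval 46.8% to 64.5%) and by 56.1% of those 1461 peaks. By score, then, satellites of strong sites did not stand apart from other grouped weak peaks. They were even on both sides, with 70 pairs of strong site and satellite on the left and 66 on the right.

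Weak satellites in the strict sense, with scores below 100, were listed within 10 kb of 57 strong sites, or 21.5% (interval 16.7% to 27.0%), against 17.3% of all listed peaks. The share around peaks below 500 was 17.1% (16.1% to 18.1%), which lies inside the interval of the strong class. It was 21.0% at scores of 100 to 200, 19.6% at 200 to 500, 22.2% at 500 to 1000 and 19.7% at 1000 or more. An excess of weak satellites at strong sites over peaks of 100 to 500 was therefore not detectable with this number of peaks. Around 38 strong sites, peaks below 100 were the only neighbours, and 52 had a neighbour of 100 to 500.

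The 10 strong sites with most satellites lay in 1 Mb windows with 6 to 41 listed peaks. There were 12 with 3 or more, and among the 10 with exactly 3 the 8 with the highest scores are given. On chromosome 8 the narrow peak at 122866988 to 122867423 (score 549.7) had 5 within 10 kb: on its left a peak of score 256 at a gap of 6.62 kb and one of 62.4 at 2.80 kb, and on its right peaks of 224, 59.9 and 109 at 1.58, 2.89 and 4.23 kb. On chromosome 11 the peak at 101990313 to 101991754 (1854) had 4, with scores from 56.8 to 119, and the nearest of them began 0.121 kb beyond its edge. Chromosome 3 at 78949085 to 78950082 (2248) had 3, with a score of 299 at 5.48 kb, 98.6 at 0.812 kb and 106 at 0.032 kb. Two-sided arrangements such as these were also listed on chromosome 8 at 109750072 to 109751045 (956) and at 127862572 to 127863671 (695), on chromosome 2 at 165925772 to 165926513 (785), on chromosome 12 at 107147934 to 107148697 (734) and on chromosome 8 at 127899205 to 127900466 (714), each with 3 satellites. On chromosome 10 a strong site at 119159337 to 119160187 (785) and another at 119172558 to 119173235 (645) enclosed the same 3 weak peaks, of scores 89.6, 60.4 and 63.2. None of these 10 sites had a satellite above a score of 401, and 4 of the 10 lay on chromosome 8.

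**Figure D4:**
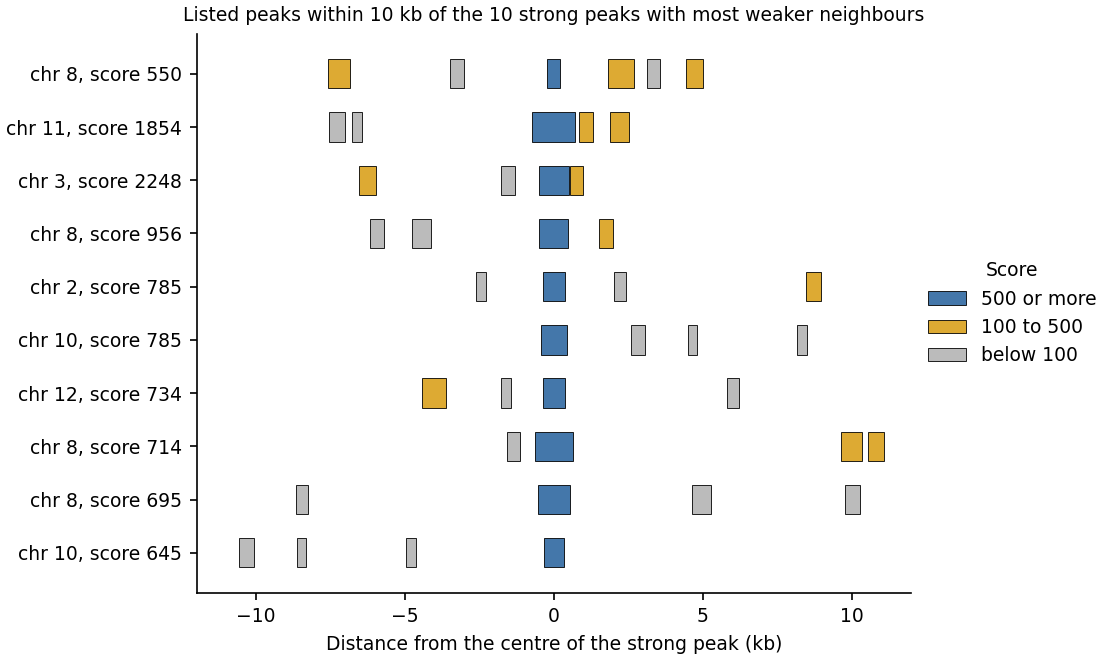
Listed peaks with an edge gap of at most 10 kb from the 10 strong peaks with most satellites, drawn to scale as boxes by distance in kb from the centre of the strong peak (horizontal), one strong peak per row and ordered by number of satellites. Colour gives the score (blue 500 or more, yellow 100 to 500, grey below 100), and the weaker peaks lie on both sides in 8 of the 10 rows.

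Satellites were densest next to the edge of a strong site. Per 100 kb searched, peaks below 500 were listed at a density of 5.67 at gaps up to 1 kb (30 pairs), 3.02 at 1 to 2 kb, 2.65 at 2 to 5 kb and 1.81 at 5 to 10 kb. Further out the density fell to 1.18 at 50 to 100 kb and 0.53 at 300 to 1000 kb. Around peaks below 500 the same bands gave 4.51, 2.14, 1.66, 1.35, 0.82 and 0.45, lower than around strong sites in each. Peaks of 200 to 500 gave 6.24, 3.24, 2.31, 1.47, 0.83 and 0.50, higher than strong sites in the first 2 bands and lower in the others. Relative to the density at 100 to 1000 kb around the same peaks, the first 10 kb were 4.28 times as dense for strong sites and 3.76 times for peaks below 500, and peaks of 200 to 500 gave 4.38. The excess over their own surroundings was thus of similar size in strong and weaker peaks, and its difference was not tested.

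Most of the closest satellites of strong sites were weak, but so were most peaks below 500 in the list. Scores below 100 were held by 64.6% of the 5547 peaks below 500 that were not satellites. That share lies inside the interval given next for satellites within 1 kb. Of the 30 within 1 kb, 22 had scores below 100 (73.3%, interval 54.1% to 87.7%), against 289 of 510 (56.7%, 52.2% to 61.0%) around peaks below 500 and 39 of 83 (47.0%, 35.9% to 58.3%) around peaks of 200 to 500. At gaps of 1 to 10 kb the share was 54 of 106 (50.9%, 41.0% to 60.8%), close to the 54.5% around peaks below 500. The higher share within 1 kb rests on few peaks. Its interval overlapped the others, which does not decide whether the shares differ, and this was not tested. The 11 satellites at gaps of 0.5 to 1 kb had a median score of 66.4 and included a single one above 100, at 119.8. The 7 at gaps up to 0.1 kb were mixed, with a median score of 96.3 and a highest of 426, and the smallest gap was 0.007 kb.

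**Figure D5:**
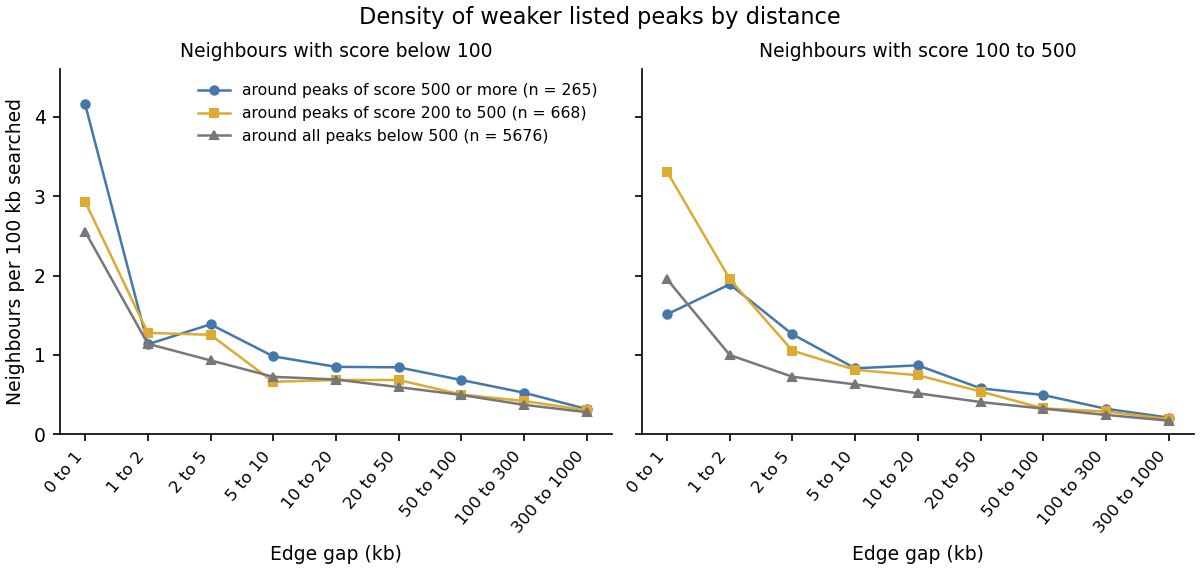
Density of listed peaks with scores below 100 (left) and of 100 to 500 (right), per 100 kb searched (vertical), in bands of edge gap in kb (horizontal) around strong peaks (circles), peaks of 200 to 500 (squares) and all peaks below 500 (triangles). Within 1 kb of strong peaks the density of peaks below 100 was 4.16 and that of peaks of 100 to 500 was 1.51.

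Listed peaks directly at the edge were most frequent around the highest scoring sites, a difference that was not tested. Among the 71 with scores of 1000 or more, 14 (19.7%, interval 11.2% to 30.9%) had a listed peak within 1 kb. Among the 194 with scores of 500 to 1000 it was 17 (8.76%, 5.19% to 13.7%). These intervals overlapped. The share was 11.5% of peaks of 200 to 500 and 9.09% of all listed peaks. Of the 14 sites, 3 had only another strong site within 1 kb. They were both peaks of the chromosome 8 pair 0.006 kb apart and the chromosome 5 peak of score 1095. The same held for 1 of the 17, the chromosome 5 peak of score 518. If the chromosome 8 pair is 1 region divided by the caller, it has no listed peak within 1 kb and leaves the count. At gaps of 1 to 10 kb, peaks below 100 were listed at 0.70 per 100 kb around sites of 1000 or more, from only 9 pairs, and at 1.29 around those of 500 to 1000, from 45. Peaks of 100 to 500 were listed at 1.10 and 1.09 around the same classes. Read profiles were not analysed here, so a shoulder of a strong peak cannot be told apart from a separate weak site.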

How the data were processed

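A list of peaks from 1 Nacc1 ChIP library of N2A cells was analysed. The score deposited for each peak by the authors is that of the peak caller. MACS 1.4, Bowtie2, SAMtools and CASAVA 1.8 are named with build mm9, per the submitters' processing notes. Tool parameters, mapped reads and any use of the input as control are not given in the sources at hand. Scores rise with depth, and depth was not analysed here.

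Peaks on chromosomes 1 to 19 and X were split at a score of 500. Gaps were counted in bases between peak edges, and densities by distance over the sequence inside the span of listed peaks. The class, the bands and the named regions were chosen with earlier results of these data known. Named were the top site of each chromosome, 5 peaks on either side of the threshold, the 5 widest, 5 narrowest and 5 most isolated sites, the 5 closest pairs and the 10 sites with most weaker neighbours. Intervals printed for shares were exact binomial (SciPy 1.17.1, Python 3.11.15). The neighbour search was tested on simulated lists. Planned descriptions of base composition and gene context were not run, for want of mm9 sequence and annotation.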

Additional observations from a re-analysis of the deposited data

How the results depend on the processing

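The choices were varied one at a time. Leaving out chromosome 12 was added after the data were seen. In all 14 alternatives the share of strong sites with a listed neighbour exceeded that of the weaker peaks, and in all 15 so did the share with a weak satellite. At 1 kb the intervals of the former overlapped (8.09% to 16.2% against 8.24% to 9.74%), unlike at 10 kb. Thresholds of 700 and 1000 left 150 and 71 sites, and thresholds of 400, 700 and 1000 gave median widths of 797, 936.5 and 1103 bp and median gaps between strong sites of 2733, 5201 and 13666 kb; fewer sites lie further apart by construction. At neighbour distances of 1, 5, 20 and 50 kb, the share with a neighbour was 11.7%, 30.9%, 49.4% and 64.2% (weaker peaks 8.97%, 20.2%, 38.6% and 54.7%), the share with a weak satellite 7.92%, 16.6%, 32.1% and 48.7% (4.99%, 11.9%, 25.7% and 41.8%), and the mean number of weaker peaks 0.113, 0.332, 0.857 and 1.71 (0.090, 0.232, 0.607 and 1.21). Merging peaks within 1 kb gave 31.6%, 14.8% and 0.373 for these quantities, against 21.4%, 12.1% and 0.246 around weaker peaks. Leaving out gaps under 1 kb gave 30.9%, 15.1% and 0.400, against 22.2%, 13.0% and 0.277. Counting only neighbours of at least 100 gave 24.9% (weaker peaks 15.1%), and a limit for weak satellites of 75 or 200 gave 14.3% or 29.8% (12.3% or 23.8%). The other 42 of 71 values stayed within 1.5 times the main count or inside the 95% interval of the main value. That interval was binomial for shares, Poisson for the mean number of weaker peaks and taken from ranked values for median width and median gap. No paired analysis was possible because there was 1 library in each group, and no replicate could be left out. Without read depth, the number of weaker satellites missed by the threshold is unknown.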
